A study of Danio rerio with 4 samples.

Results

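The normal accessible chromatin of the zebrafish pronephric duct at 30 hours post fertilization (hpf) is described from 2 libraries of embryos injected with a standard control morpholino. ATAC-seq, in which a transposase inserts adapters into DNA that is not tightly packed, was run on cells dissociated from the duct. The regions described are all 24109 peaks of the list that the authors deposited for the control group. The control and actl6a lists of the series together hold 39357 entries, and a region present in both is counted in each. All 24109 control peaks lay on chromosomes 1 to 25. The series has 4 libraries, and the 2 with the actl6a morpholino are not part of the description. The control embryos were wild type by genotype and carried the transgene of the Na, K-ATPase alpha1A4:GFP line, named Tg (atp1a1a.4:EGFP) in the design text. The morpholino was given at the 1-cell stage and ducts were taken from 15 embryos. Between 10000 and 20000 viable cells per sample entered a library. Duct fragments were picked by eye for their GFP after collagenase treatment, and no sort of the dissociated cells is mentioned. The label pronephric duct was not checked against marker genes, because peaks were assigned to no gene here. GFP of the line is high in pronephric epithelia, so the fragments stand for tissue chosen by that transgene, and the share of other attached cells was not analysed here.

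The pronephros is the first kidney of fish and amphibian embryos. Its duct is an epithelial tube lined with cilia, which recovers ions from the filtrate and drives fluid towards the cloaca. In ATAC-seq, high coverage marks promoters, enhancers and other elements from which nucleosomes are displaced, and the length, height and spacing of peaks describe how such elements are laid out along chromosomes.

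Signal is given throughout as a multiple of the genome mean, which is the mean of a library's own track over chromosomes 1 to 25, and a peak's value is the mean over its length. The size of 1 step in the low values fitted a depth of 117 M reads for control replicate 1, and 136 M for replicate 2. At that depth a control peak held a median of 135 inferred reads in replicate 1 and 140 in replicate 2. Both libraries come from the same group and the labels state no separate clutches or preparations, so the differences between them are the only replicate error, and it may be technical. Bins with no coverage made up 8.20% of the named chromosomes in replicate 1 and 6.62% in replicate 2.

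Control peaks were spread over all chromosomes at similar density, with chromosome 4 as the exception. The list held 17.9 peaks per Mb over the named chromosomes, and peaks covered 1.06% of their length. Outside chromosome 4 the density ran from 15.8 peaks per Mb on chromosome 12 to 20.5 on chromosome 23, a 1.30-fold range over 24 chromosomes. Chromosome length and density showed little relation over these 24, with the Spearman correlation at 0.0043. Chromosome 4 had 11.2 peaks per Mb. Its first 30 Mb held 647 peaks or 21.6 per Mb, above every whole chromosome, and the remaining 48.1 Mb held 228 peaks or 4.74 per Mb. The far part of chromosome 4 is known as largely heterochromatic and rich in repeats. Coverage there was 0.926 and 0.915 times the genome mean in replicates 1 and 2, against 1.08 and 1.07 in the first 30 Mb, so coverage fell far less than the number of peaks.

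The chromosomes differed little in the median width and median signal of their peaks. Median peak width lay between 489 bp on chromosome 21 and 541 bp on chromosome 2. Median signal per chromosome lay between 2.89 and 3.25 in replicate 1 and between 2.59 and 2.89 in replicate 2. The peaks of chromosome 4 beyond 30 Mb were slightly wider, at a median of 588 bp, and slightly dimmer, at 2.80 in replicate 1 and 2.47 in replicate 2. The first 30 Mb had medians of 518 bp, 3.29 and 2.83.

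**Figure D1:**
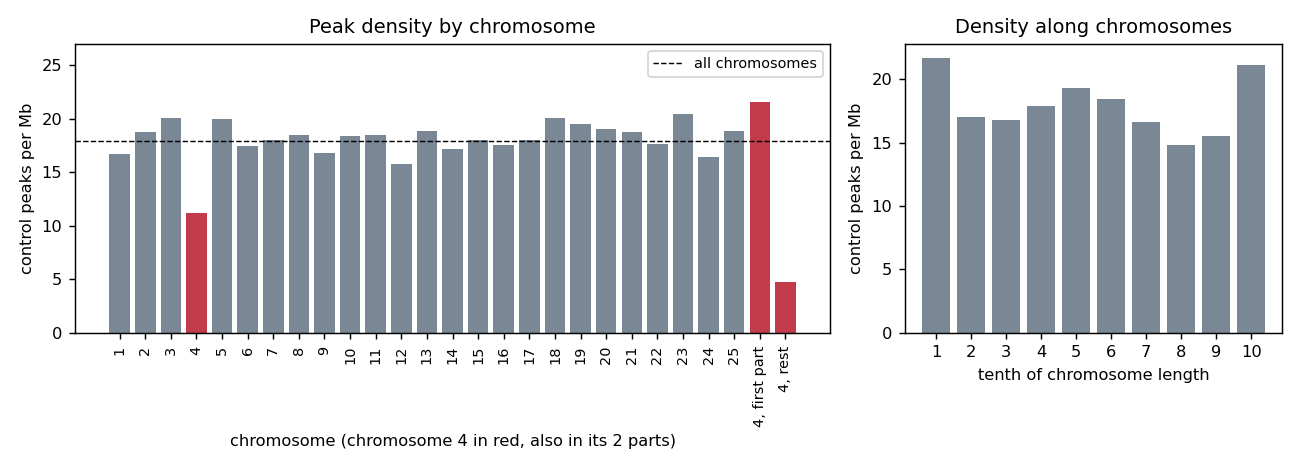
Left, control peaks per Mb on each of the 25 chromosomes, with chromosome 4 also split at 30 Mb; the dashed line is the value over all of them, 17.9 per Mb. Right, peaks per Mb in each decile of chromosome length, all chromosomes together; the outer deciles stand at 21.7 and 21.2 per Mb and the lowest, the eighth, at 14.8. There is 1 list for the group, so bars have no error.

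Density was highest at the chromosome ends and had a second, lower rise in the middle. By deciles of chromosome length it was 21.7 and 21.2 peaks per Mb in the outermost deciles, 19.3 in the fifth, 16.8 in the third and 14.8 in the eighth. The outer deciles together held 23.9% of peaks on 20% of the length. The exact Clopper-Pearson 95% interval was 23.4% to 24.5%, counting error only, with peaks taken as independent. Peaks per window of 1 Mb had a variance of 3.77 times their mean, more than independent peaks would give. The interval may thus be too narrow. By distance from the nearer end, density was 34.3 peaks per Mb in the outermost megabase, against 22.3 in the next and 16.2 to 18.5 from 2 Mb inwards. Coverage outside peaks was also raised in the outermost megabase, at 1.22 and 1.21 times the genome mean in replicates 1 and 2, against 0.913 and 0.925 in the next. Median peak signal there was 3.72 and 3.25, against 3.01 and 2.73 in the next megabase.

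In windows of 1 Mb the number of control peaks had a median of 17, quartiles of 12 and 23, and a range of 0 to 58 over 1336 windows. The densest decile of windows held 19.2% of all peaks. Of the 10 densest windows, 8 were the first megabase of their chromosome. Windows were counted from the first base of each chromosome, and the incomplete last one was left out. Far ends thus did not line up with a window, and this count does not compare near and far ends. The window with most peaks was the first of chromosome 22, with 58, followed by 44000001 to 45000000 of chromosome 11, with 52. A window without any peak occurred 7 times, 6 of them on chromosome 4. The longest stretch without a peak was on chromosome 4 from 38282926 to 41348275 (GRCz11), 3065 kb long. Its mean coverage was 0.534 and 0.539 times the genome mean. Bins without coverage were not counted in it, so low coverage throughout and partly uncovered sequence are not told apart. The 5 longest such stretches were all on chromosome 4, between 1608 and 3065 kb, and coverage in the fifth, at 1.03 and 0.984, was near the genome mean. The longest elsewhere was 1511 kb on chromosome 19, where coverage was 0.926 and 0.956.

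Peaks were unevenly spaced. The gap from the end of a peak to the start of the next had a median of 29.5 kb. Its order-statistic 95% interval was 28.9 to 30.1 kb, counting error only, with gaps taken as independent. The mean, which is the gap that even spacing would give, was 55.2 kb. The quartiles were 11 and 69.6 kb, and the SD was 1.46 times the mean. Of 24084 gaps, 2791 (11.6%) were under 5 kb, 5540 (23%) under 10 kb and 72 were 500 kb or more. No gap was under 204 bp and no peak was under 203 bp. Median gaps per chromosome ranged from 26.5 kb on chromosome 19 to 36.2 kb on chromosome 24. Chromosome 4 had 27.3 kb as a whole, with 23.4 kb in its first 30 Mb and 65 kb beyond.

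Brighter peaks had nearer neighbours. The median distance to the nearest peak was 23.8 kb in the decile (10% of peaks) with the lowest signal and fell step by step to 6.68 kb in the decile with the highest. A neighbour within 5 kb was present for 9.37% of peaks in the lowest and 41.6% in the highest decile. Ordering by a single library gave 21.2 and 6.65 kb for replicate 1, and 22.9 and 6.83 kb for replicate 2. Leaving out the outermost megabase of each chromosome end left 24.3 and 6.92 kb. Over all peaks, the Spearman correlation between distance and signal was -0.25 in replicate 1 and -0.26 in replicate 2, a description across 24109 peaks that share libraries. Width showed little such relation: the median distance was 14.8 kb for the narrowest quartile of peaks by width and 14.3 kb for the widest.

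**Figure D2:**
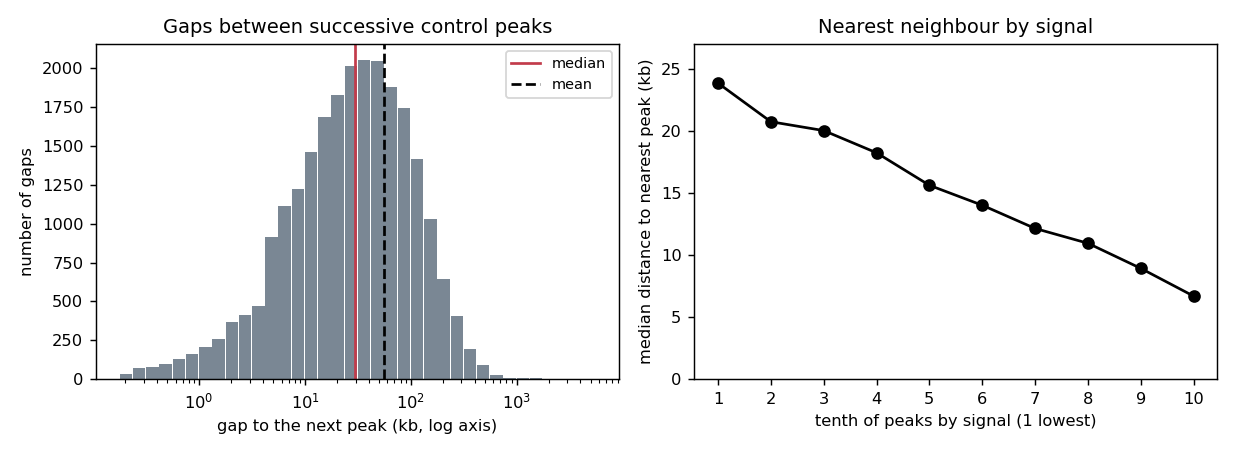
Left, number of gaps between successive control peaks by gap length on a log axis, with the median of 29.5 kb and the mean of 55.2 kb marked. Right, median distance to the nearest peak for deciles of peaks ordered by the mean signal of both libraries, falling from 23.8 to 6.68 kb.

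Megabases with more peaks also had brighter peaks. Over 1291 windows of 1 Mb with at least 5 peaks, the Spearman correlation between the number of peaks and their median signal was 0.47 in both replicates. The relation of peak number with coverage outside peaks was weaker, at 0.26 in replicate 1 and 0.27 in replicate 2. Signal of successive peaks was alike at short range. The Spearman correlation of the log2 signal between a peak and the next was 0.62 over 573 pairs less than 1 kb apart, 0.48 at 2 to 5 kb, 0.24 at 5 to 10 kb and 0.063 beyond 100 kb. With one peak measured in one library and its neighbour in the other, the values were 0.52, 0.41, 0.20 and 0.032. The decline with distance was thus also present across libraries.

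The number of pairs of adjacent peaks had a step at a distance of 5 kb between midpoints. In successive steps of 500 bp from 4 kb, pairs of adjacent peaks numbered 218, 213, 332 and 352. They had numbered 293 at 3 to 3.5 kb and 221 at 3.5 to 4 kb. From 3 to 5 kb there were 945 pairs, whose weaker member had a median signal of 3.05, and from 5 to 7 kb there were 1274, whose weaker member had 2.69. The Spearman correlation between the members of a pair was 0.504 below the step and 0.31 above it. The number of pairs thus rose at 5 kb, while the signal of the weaker member was 2.80 at 4.5 to 5 kb, 2.73 at 5 to 5.5 kb and 2.84 at 5.5 to 6 kb, with no step there. Pairs were not fewer at all shorter distances, with 349 at 1 to 1.5 kb and 312 at 1.5 to 2 kb. The settings of the peak caller are not given in the sources used here, and their part in this step and in the tighter spacing of bright peaks was not tested.

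The densest run of 10 successive peaks spanned 38.2 kb on chromosome 15, from 28262064 to 28300312. Its peaks were 303 to 1158 bp wide, with signal of 3.75 to 12.8 (median 5.22) in replicate 1 and 1.92 to 10.2 (median 3.76) in replicate 2. The next run spanned 41.3 kb on chromosome 25, from 35106534 to 35147825, and had narrower peaks of 221 to 591 bp. Its medians were 5.09 and 3.52. The third spanned 43.4 kb on chromosome 7, from 6425283 to 6468716, with medians of 5.01 and 3.98. In each of the 3 runs the median was above that of all control peaks, 3.08 in replicate 1 and 2.74 in replicate 2, and no peak reached 20. Genes at these runs were not analysed here.

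Most control peaks stood well above their surroundings. Signal had quartiles of 2.35 and 4.26 around the median of 3.08 in replicate 1, and of 2.12 and 3.64 around 2.74 in replicate 2. Flanks 1 to 2 kb outside the peak had medians of 0.889 and 0.896. The ratio of peak to flank had a median of 3.53 in replicate 1 and 3.08 in replicate 2, and 21506 peaks (89.2%) reached at least 1.5 in both libraries. Another 1326 peaks reached it in replicate 1 only, 906 in replicate 2 only and 371 in neither. Signal below the genome mean was seen in 116 peaks in replicate 1 and 206 in replicate 2, with 21 in both. Signal at the level of peaks was also found outside the list. Of 2637670 windows of 500 bp that touched no control peak, 9228 reached the median control peak in both libraries. Among control peaks, 8505 (35.3%) reached it in both, a far larger share than among the windows. Adjacent windows can lie in the same stretch, so windows do not count separate sites. How the libraries entered the list is not given in the sources used here, and enrichment in a list called on the same libraries is no finding.

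A small set of peaks stood far above the rest. The lower of the 2 library values was between 5 and 10 in 1543 peaks, between 10 and 15 in 50, and between 15 and 20 in only 13. At 20 or more there were 105 peaks, 37 of them at 200 or more. The limit of 20 was set after this thinning of the distribution had been seen. At a limit of 30 there were still 102 peaks, so the sparse range went on above 20. These 105 peaks were 0.436% of the list and 0.382% of its length, lay on 21 chromosomes, and had a median signal of 118 in replicate 1 and 116 in replicate 2. They gathered in 47 places when peaks up to 100 kb apart were counted as 1 place, and 82 of them shared a place with at least 1 other.

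The brightest control peak was on chromosome 7 at 53011313 to 53011834, with signal of 864 in replicate 1 and 911 in replicate 2. It lay in a group of 5 such peaks within 18.8 kb, of which 2 more were among the 10 brightest, at 53014984 to 53015219 with 568 and 593 and at 53013458 to 53014318 with 548 and 553. The flanks of these 3 peaks stood at 185 to 277 in replicate 1. These flanks overlapped other peaks of the group, so they do not give the level of the stretch outside the listed peaks. The second brightest was on chromosome 20 at 4608788 to 4609037, with 799 and 964, and its flanks were at 0.476 and 1.12. This peak of 250 bp thus stood alone in surroundings near the genome mean. Chromosome 10 held the largest group, 9 peaks from 16794056 to 16839743, with the highest at 16800656 to 16801234 reaching 666 and 758.

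The remaining members of the 10 brightest were on chromosome 15 at 7290565 to 7290800, on chromosome 14 at 20090323 to 20090958, on chromosome 17 at 39940889 to 39942141, on chromosome 16 at 25920996 to 25922000 and on chromosome 4 at 28565788 to 28566254. Their signal ran from 432 to 621 in replicate 1 and from 464 to 715 in replicate 2. In all 10 the value of replicate 2 was the higher. That is the reverse of the other peaks: the median ratio of replicate 1 to replicate 2 was 0.955 over the 105 and 1.16 over the remaining peaks. For mitochondrial DNA the ratio of coverage was 1.96.

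Very bright coverage was not confined to the listed peaks. Among the 2637670 windows of 500 bp that touched no control peak, 1193 were at 20 or more in both libraries. The highest window reached 1810 in its lower library. The median flank of the 105 peaks was 30.4 in replicate 1 and 32.3 in replicate 2. Flanks could include other listed peaks, and 54.3% of the 105 had a neighbour within 5 kb. The flank values are thus not coverage outside the list alone. The source of these levels was not tested. Of the peaks whose lower library was under 15, named here after their values had been seen, the highest were a pair on chromosome 16, at 9574170 to 9574603 with 15.3 and 15, and at 9569718 to 9570555 with 16.1 and 14.9. The next was on chromosome 1 at 54971952 to 54972684, with 14.7 and 13.7, above flanks of 0.685 and 1.14.

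The 105 peaks made up most of the share held by the brightest 1%, and less of the share held by wider groups. When peaks were ranked by summed signal in one library and measured in the other, the brightest 1% (241 peaks) held 19.3% of the in-peak signal of replicate 1 and 22.1% of that of replicate 2. The brightest 10% held 38.4% and 39.5%, and the brightest 50% held 76.6% and 76.4%. The 105 peaks alone held 16.6% and 19.8%. Without them the brightest 1% held 4.97% and 4.61%, the brightest 10% held 26.8% and 25.3%, and the brightest 50% held 72.1% and 70.7%.

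**Figure D3:**
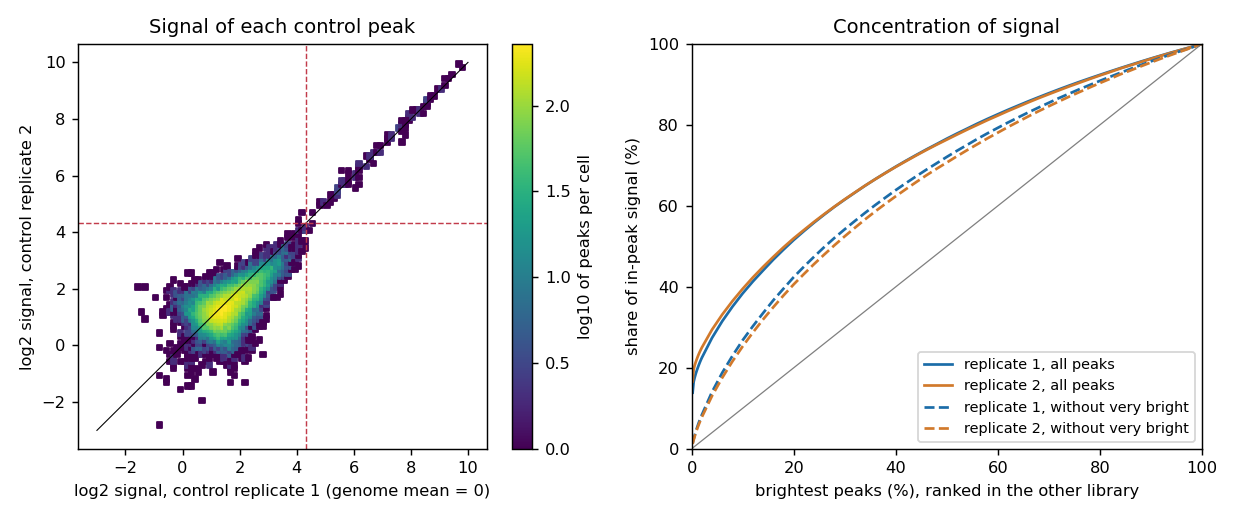
Left, log2 signal of the 24109 control peaks in replicate 1 and replicate 2, coloured by the log10 number of peaks in each cell of the grid; dashed lines mark 20 times the genome mean, and the 105 peaks beyond both form a separate narrow tail along the diagonal. Right, cumulative share of in-peak signal held by the brightest peaks, ranked in the other library, for all peaks (solid) and without the 105 (dashed); the grey line is equal signal in every peak.

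All control peaks together took 4.52% of the signal of replicate 1 and 3.99% of that of replicate 2, or 4.25% ± 0.374 (SD, n = 2). Without the 105 peaks the shares were 3.77% and 3.20%, so the remaining peaks held a larger share in replicate 1. The 105 peaks took 0.751% and 0.788%. Ranked by summed signal in each library, 199 of the brightest 241 peaks (82.6%) and 1840 of the brightest 2411 (76.3%) were the same in both. Summed signal is mean signal times width, and both libraries share the listed widths. The 105 peaks are also high in both libraries by definition. Part of this overlap is thus set in advance.

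Mean signal neither rose nor fell steadily with width, whereas the highest 50 bp bin and the number of summits rose with width. Widths had quartiles of 370 and 724 bp around a median of 520 bp, and 2264 peaks (9.39%) were 1000 bp or wider. The Spearman correlation between width and mean signal was 0.0078 in replicate 1 and -0.011 in replicate 2. Across deciles of signal, median width was 589 bp in the lowest, 483 bp in the fourth and 549 bp in the highest. The dimmest and the brightest peaks were thus wider than those between, which a rank correlation near 0 does not show. With the highest 50 bp bin in place of the mean, the Spearman correlation was 0.25 and 0.24. In the narrowest quartile of peaks by width, up to 370 bp, the highest bin had a median of 3.89 in replicate 1 and 3.54 in replicate 2. In the widest quartile, from 724 bp, it was 5.39 and 4.61. A wider peak has more bins from which its highest is taken. The mean signal of a peak had a median of 3.12 and 2.81 in the narrowest quartile and of 3.13 and 2.73 in the widest.

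The widest quartile of peaks held 41.9% of in-peak signal in replicate 1 and 41.2% in replicate 2, and the narrowest quartile held 14.3% and 15%. More than 1 summit, counted where a local maximum rose by at least 20% of the highest bin, was seen in 1.61% and 2.67% of the narrowest quartile. In the widest quartile it was 53.8% and 61.8%, and in peaks of 1000 bp or more 69.8% and 79.5%. A wider peak also has more bins in which such a maximum can lie. Both libraries counted the same number of summits in 53.2% of the widest quartile. The narrowest quartile held 50 of the 105 very bright peaks, and the widest held 19.

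Profiles around peak midpoints differed between widths in breadth more than in height. The difference in breadth follows from sorting the peaks by their listed width. Without the 105 peaks, the median profile of replicate 1 was at 3.35 in the centre and 0.754 at 1 to 2 kb, and that of replicate 2 at 2.94 and 0.779. The profile stayed above the midpoint between centre and flank over 300 and 250 bp for the narrowest quartile and over 950 bp in both libraries for the widest. The centre was lower in the widest quartile, at 3.07 and 2.76, than in the narrowest, at 3.55 and 3.18. The highest bin lay in the middle 50% of the peak in 62.1% of peaks in replicate 1 and 59.9% in replicate 2.

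**Figure D4:**
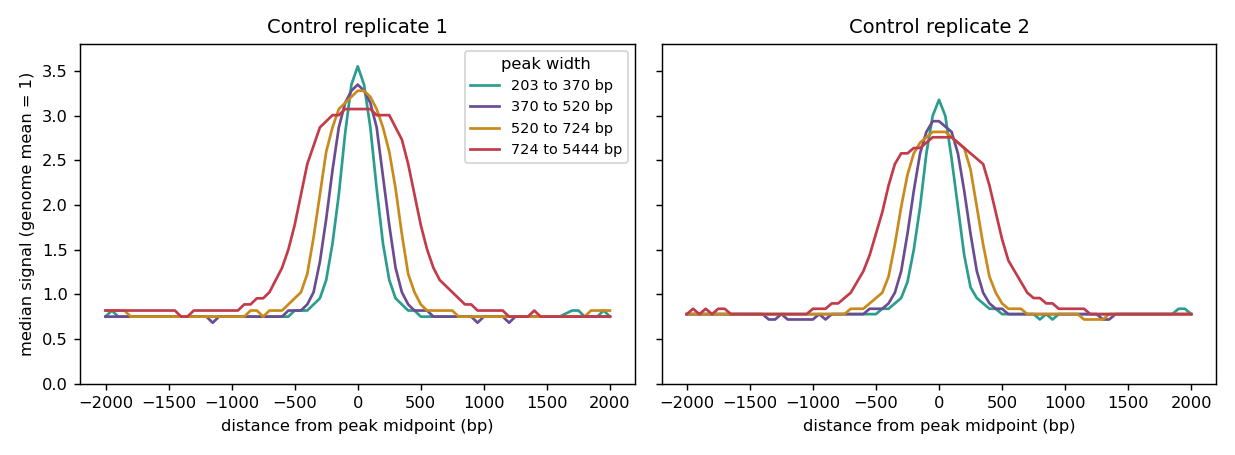
Median signal in 50 bp bins around the midpoints of control peaks, without the 105 very bright ones, for quartiles of peaks by width, in replicate 1 (left) and replicate 2 (right). The 4 curves reach similar heights, between 2.76 and 3.55 at the midpoint. They differ in their breadth, which follows from the sorting by width.

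The 5 widest peaks lay on both sides of the median signal, between 1.40 and 3.86 in replicate 1 and between 1.14 and 3.02 in replicate 2. The widest, 5444 bp on chromosome 4 at 36748769 to 36754212, had a signal of 2.23 in replicate 1 and 1.56 in replicate 2, with 8 summits in each library. The second, 3483 bp on chromosome 12 at 12214161 to 12217643, had 3.58 and 3.02. The third, 3316 bp on chromosome 16 at 43073725 to 43077040, had 1.40 and 1.14, at a level close to its flanks of 1.14 and 1.39. The fourth was on chromosome 17 at 2180236 to 2183497, with 3.86 and 2.35, and the fifth on chromosome 4 at 44556196 to 44559422, with 2.32 and 1.81. In all 5, replicate 1 was the higher.

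The control libraries ranked peaks moderately alike. Pearson's r of log2(signal + 0.5) was 0.733 over all control peaks and 0.621 without the 105, and the Spearman correlation was 0.561 and 0.555. Windows of 500 bp outside control peaks gave r = 0.525. These are correlations across regions of the same pair of libraries. By chromosome r ranged from 0.571 on chromosome 25 to 0.849 on chromosome 10, and without the 105 peaks from 0.565 to 0.685. Chromosome 10 held 10 of the 105 very bright peaks and chromosome 25 held 0. The typical difference between the libraries was 0.33 on the log2 scale, a factor of 1.26 on signal + 0.5.

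Replicate 1 was the higher library in 15817 peaks (65.6%), and its lead grew over the deciles of signal. In the decile of peaks with the lowest signal the median log2 difference, replicate 2 minus replicate 1, was -0.072, from signal of 1.79 and 1.71. It was -0.14 in the fifth decile, -0.22 in the eighth and -0.33 in the highest, where the median signal was 7.28 and 5.74. In the 105 peaks it was 0.066. Among the dimmest peaks the order was not kept: at a mean signal of 0.5 to 1 the difference was -0.30 in 41 peaks, at 1 to 1.5 it was -0.21 in 196, and at 1.5 to 2 it was -0.050 in 2376. On each of the 25 chromosomes the median difference was below 0, between -0.22 and -0.13. Windows outside control peaks of the same level showed less of this: at a mean signal of 3 to 5 their median difference was -0.066, against -0.22 in 8117 control peaks. The difference between the highest and the lowest level, -0.26 on the log2 scale, became 0.018 with quantile normalization, which gives both libraries the same distribution over the control peaks and so removes such a shift by construction.

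The spread between the libraries narrowed with signal. With the shift of each decile removed, the median absolute log2 difference was 0.33 in the lowest decile, 0.31 in the fifth, 0.26 in the eighth and 0.22 in the highest. The pseudocount shrinks differences most in dim peaks, so it flattens this decline. Counting error alone, from the inferred reads and taken as independent, would give 0.11, 0.11, 0.092 and 0.070. The observed spread was thus about 3 times the counting error at each of these levels, and in the 105 peaks it was 0.10 against 0.019. Wide peaks differed less than narrow ones when the shift was not removed. Median absolute differences were then 0.39 in the narrowest quartile by width and 0.29 in the widest. These quartiles had median widths of 295 and 920 bp at similar signal, so narrow peaks held fewer inferred reads. Counting error was not computed by width.

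The place of the highest bin was shared more often in bright peaks. It lay within 50 bp in both libraries in 51.9% of all control peaks, in 34.6% of the lowest decile and in 72.2% of the highest. In the 105 peaks it was 93.3%. The distance had a median of 150 bp in the lowest decile, whose peaks had a median width of 589 bp, and of 50 bp in the highest, with 549 bp.

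**Figure D5:**
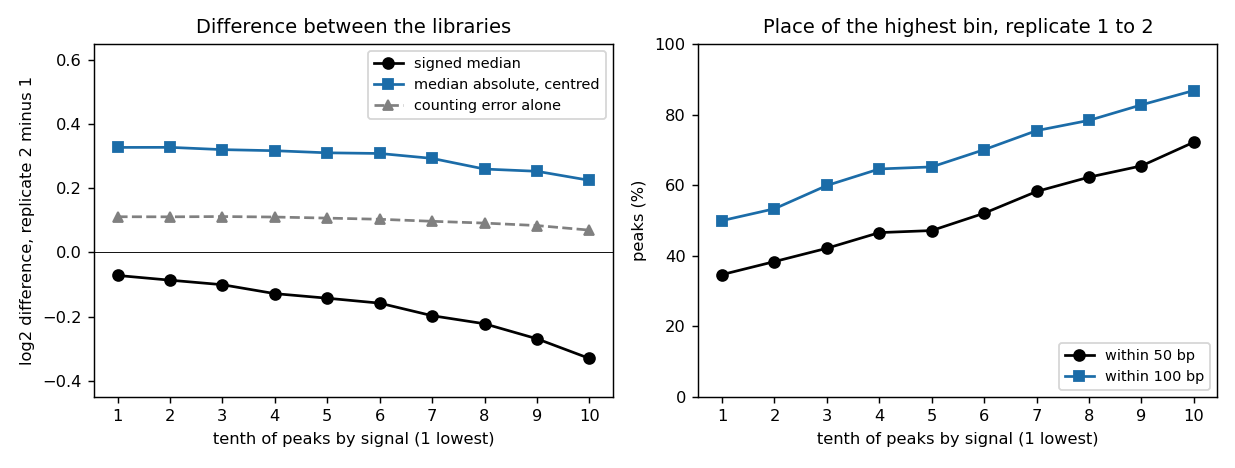
Left, for deciles of control peaks ordered by the mean signal of both libraries, the median log2 difference of replicate 2 minus replicate 1 (circles), the median absolute difference after removing it (squares) and the value from counting error alone (triangles). Right, share of peaks whose highest 50 bp bin lay within 50 or 100 bp in the 2 libraries, rising from 34.6% to 72.2% and from 49.9% to 86.8%.

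Some listed peaks differed by a factor of 2 or more between the libraries. Signal was at least 2 times higher in replicate 1 in 1675 peaks (6.95%) and in replicate 2 in 564 (2.34%). The general lead of replicate 1 was not removed from these counts. On chromosome 22 at 34926447 to 34926757 signal was 4.49 in replicate 1 and 0.410 in replicate 2, the largest ratio in favour of replicate 1, at 10.9-fold. On chromosome 25 at 36192659 to 36192882 it was 0.347 and 4.19, the largest in favour of replicate 2, at 12.1-fold. The lower library had 12.4 and 6.51 inferred reads in these peaks. They were picked as the extremes of the list.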

How the data were processed

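Each control library is represented by a coverage track that the authors deposited as signal in 50 bp bins, and the group by 1 peak list with a chromosome, start and end per peak and no score. The submitters' processing notes name GRCz11, Trim Galore, FastQC, Bowtie2, deepTools and MACS2. Versions, settings, the treatment of duplicates, any shift of reads for the transposase, the normalization and the way replicates entered the list are not given in the sources used here. Shifted or extended reads would move summits and widths, and kept duplicates would raise bright peaks.

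Of the low values (up to 20 steps), 99.9993% in each library were whole multiples of the library's step within 0.1 of a step. Read as RPKM per bin, the step gives the depth. This is an inference, and such reads need not be independent molecules. Values were divided by the library's own mean on chromosomes 1 to 25, so that 1 is the genome mean. Signal of a peak is the length-weighted mean, and log2 values used a pseudocount of 0.5, which makes differences of low peaks smaller. Coordinates count from 1.

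All results are descriptions of 1 group of 2 libraries, without a test or p-value. Peaks to be named were the 10 with the highest signal in the lower library, the 5 widest and the 3 densest runs of 10 peaks. The limit of 20 for very bright peaks was set after the distribution of signal had been seen. The members, results and rules were chosen with earlier results of these data known. Promoters, marker genes and sequences need an annotation or genome of GRCz11 and were not analysed here. Mitochondrial DNA and 967 scaffolds were left out of the peak results. The functions were tested on simulated data. Computations ran in Python 3.11.15. Arrays were handled by numpy 2.4.6 and tables by pandas 2.3.3, ranks and intervals came from scipy 1.17.1, and plots from matplotlib 3.10.9.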

Additional observations from a re-analysis of the deposited data

Results flagged for a closer look

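Signal was also present outside the regions described. Mitochondrial DNA, which holds no listed peak, took 1.22% of all signal in control replicate 1 and 0.625% in control replicate 2. On the named chromosomes, 2637670 windows of 500 bp touched no control peak. Of these, 1193 were at 20 times the genome mean or more in both control libraries.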

How the results depend on the processing

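Of 75 alternative values computed for 13 results, 43 stayed within the spread of the main value, 31 moved beyond it, and 1 main value that was larger than its spread changed sign. The correlation of width and signal, whose main value was smaller than its spread, fell on either side of 0. The spread was 1 SD of the 2 libraries, the SD over chromosomes, or for density a factor of 1.5. For other results it was an interval of the median, or of the share in the outer deciles (counting error only). For width and signal, the signal share of all peaks and the ratio of centre to flank, the main value was the mean of the 2 libraries. There, leaving out 1 library could not move the value beyond 1 SD, so those alternatives stayed within the spread by construction. The cause of a change was not tested unless the setting itself makes it. Leaving out the 105 very bright peaks was added after the data had been seen. It took the share of the brightest 1% from 20.7% to 4.79%, of the brightest 10% from 38.9% to 26.1% and of the brightest 50% from 76.5% to 71.4%. It took the signal share of all peaks from 4.25% to 3.48%, Pearson's r from 0.733 to 0.621 and the Spearman correlation of neighbours under 2 kb from 0.596 to 0.576. Other limits for very bright peaks were also added then: 118 peaks at a limit of 15 held 16.8% and 20% of in-peak signal, and 82 at a limit of 50 held 15.6% and 18.5%.

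With peaks of at least 2 in both libraries the median gap was 36.0 kb and the share of signal 3.6%. Peaks widened by 250 bp on each side gave a share of 5.83%, and counting signal above the genome mean only gave 9.82%. The Spearman correlation of width and signal went from -0.0017 to 0.24 with the highest bin, -0.055 in 200 bp around the midpoint and 0.012 in peaks of at least 300 bp. Subtracting the genome mean gave 27%, 46.2% and 80.1% for the brightest 1%, 10% and 50%. Ranking by mean signal gave 33.9% and 68.9% for the latter groups, and ranking in the same library gave 40.2% and 79.2%. Without chromosome 4 the brightest 50% held 76.3%. With 1 library left out, ranked and measured in the other alone, the brightest 10% held 39.7% to 40.6% and the brightest 50% 78.9% to 79.4%.

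The median absolute log2 difference of 0.33 was 0.37 with a pseudocount of 0.1, 0.23 with 2, 0.30 with scaling on the median control peak, 0.29 with quantile normalization and 0.37 with the highest bin. The excess of the difference in the highest over the lowest decile, -0.26, became 0.018 with quantile normalization, which aligns the distributions by construction. The ratio of centre to flank was 4.10 in the median profile and 3.65 in the mean profile. The Spearman correlation of neighbours was 0.507 with the other library for the neighbour. The planned description of promoter peaks was not run. No paired analysis was possible because the description covers 1 group and compares no groups.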
